A study of Vigna radiata with 9 samples.

Results

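The genes examined here encode the machinery of mitochondrial electron transport and ATP synthesis in mung bean (Vigna radiata) leaves, together with the proton pumps and pyrophosphatases that the same pathway annotation holds. They were taken by annotation alone: genes whose pathway field named oxidative phosphorylation, without those described as chloroplastic or also assigned to photosynthesis, plus the genes described as ubiquinol oxidase. Of 26966 genes in the table, 111 carried the pathway, 7 were left out by the exclusions and 4 ubiquinol oxidase genes were added, which gave 108 members. The rule itself used no measured value, although it was drawn up with earlier results of these data known.

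The leaves came from wild-type plants of 3 groups, with 3 libraries per group and one pot per library. CK plants got a water spray and stayed at ambient temperature. LT plants also got water and were then moved to 15 °C for 4 days, starting 36 h after the spray. LT+S plants had the same cold treatment after a spray with 50 mg per L uniconazole, an inhibitor of gibberellin synthesis used as a growth retardant. CK stayed in the natural environment while LT and LT+S were in a phytotron, so cold and place cannot be told apart in any comparison with CK. The LT and LT+S comparisons share the CK libraries, so likeness between them is not independent.

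In plant mitochondria, complexes I to IV pass electrons from NADH and succinate to oxygen. Complexes I, III and IV pump protons as they do so, and ATP synthase uses the proton gradient to make ATP. The alternative oxidase takes electrons from ubiquinol to oxygen without pumping protons and is known for its induction by many stresses, cold included. Outside the mitochondrion, the V-type ATPase acidifies the vacuole, the P-type ATPase of the plasma membrane drives proton export, and soluble pyrophosphatases remove the pyrophosphate made in biosynthesis.

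By product description, 30 members were V-type ATPase subunits and 24 were placed in complex I. The latter include mitochondrial acyl carrier proteins, which are also annotated to fatty acid biosynthesis. Another 14 were plasma membrane ATPases, 11 belonged to complex IV with its assembly factors, 7 were ATP synthase subunits and 6 belonged to complex III. A further 5 were soluble pyrophosphatases, 4 belonged to complex II, 4 were ubiquinol oxidases and 3 had no description. Enough reads for testing were present for 95 of the 108 members. The other 13 had few or no reads: 4 had a count of 0 in every library, namely ATP synthase subunit 9 (LOC106753230), NADH-ubiquinone oxidoreductase chain 5 (LOC106754277), one plasma membrane ATPase (LOC106764366) and one V-type subunit G (LOC106758446). The first pair is normally encoded in plant mitochondrial DNA, and poly-A selection was used to make these libraries.

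The libraries held 19561896 to 21617340 counted reads. Values are given as CPM, the reads of a gene scaled to a common library size, after TMM scaling, a normalization that sets the bulk of genes level between libraries. The TMM factors were 0.781 to 0.804 in CK and 1.05 to 1.17 in the cold groups. A list of 20 leaf mesophyll genes holds chlorophyll a-b binding proteins and small subunits of ribulose bisphosphate carboxylase. Their summed level was between 59970 and 101500 CPM in CK, with ranges of 6725 to 15360 for LT and 15860 to 18280 for LT+S. By the edgeR test described next, 19 of the 20 were lower in each cold group. The choice of scaling therefore sets the zero point of every difference with CK. When library totals were used alone, the median of all 19304 tested genes moved to a log2 difference of 0.52 in LT and 0.50 in LT+S against CK. Fewer cells of a type, less RNA per cell and lower expression of the mesophyll genes themselves cannot be told apart in these bulk samples.

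A member was called changed at an adjusted p below 0.05 in edgeR's quasi-likelihood test, with Benjamini-Hochberg adjustment over all 19304 genes. In LT against CK, 9 of 95 members were higher, against a background of 22.8% of all genes, and 30 were lower, or 31.6% of members against a background of 23.7%. In LT+S against CK, 7 members were higher (background 19.7%) and 29 were lower (30.5% of members, background 21.9%). Most differences were small: 73.7% of members lay within 0.5 log2 units of zero in LT against CK, compared with 47.4% of all genes. The median log2 difference of the members was -0.24 in LT and -0.15 in LT+S with TMM scaling, and 0.27 and 0.34 with library totals, which is -0.24 and -0.17 relative to the median of all genes under that scaling. With library totals, 41 members were higher and 4 lower in LT, where 48% and 12% of all genes were called, and 46 were higher and 4 lower in LT+S, where 46.5% and 10.3% of all genes were.

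A fold over 2 with an unadjusted p below 0.05 in edgeR was reached by 4 members upward and 4 downward in each comparison with CK, or 8 of 95 where the background in either direction was 25.1% in LT and 22.4% in LT+S. The libraries of LT lay entirely above those of CK for 14 members and entirely below for 46, where 27.8% of all genes lay entirely above and 27% entirely below. For LT+S these numbers were 10 above and 39 below, where the backgrounds were 28.2% and 27.4%.

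**Figure D1:**
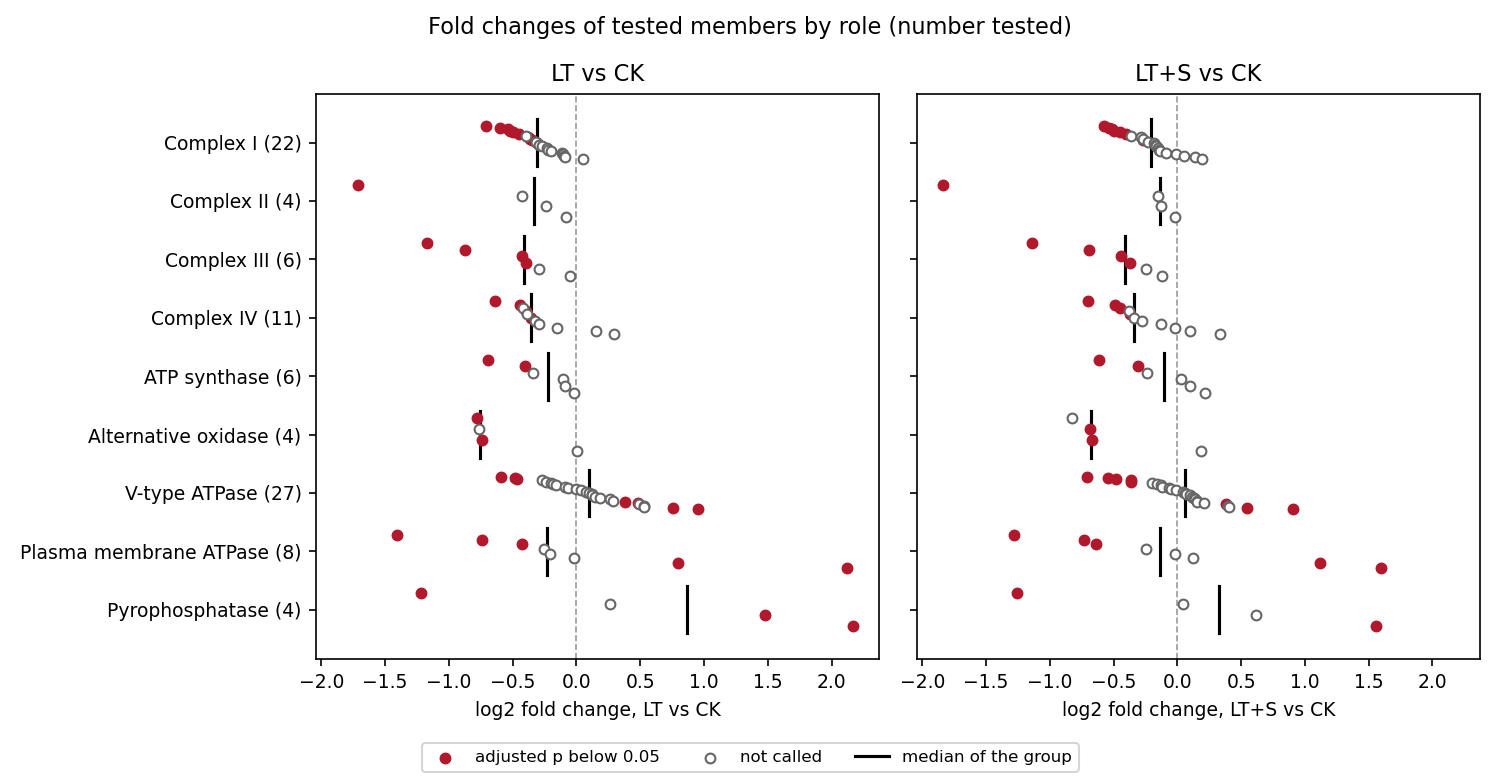
Log2 fold changes of the tested members by role, LT against CK on the left and LT+S against CK on the right, with TMM scaling. Each point is a gene, filled where the adjusted p was below 0.05, and the vertical bar is the group median (the 3 members with no description are not drawn). Complexes I to IV and ATP synthase lie mostly left of zero with TMM scaling (46 of 49 in LT) but not with library totals, the V-type ATPase straddles zero, and plasma membrane ATPases and pyrophosphatases hold the widest spread.

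Complexes I to IV and ATP synthase lay mostly below CK with TMM scaling but not with library totals. With TMM scaling 21 of their 49 tested genes (42.9%) fell in LT and none rose, where 23.7% and 22.8% of all genes did. With library totals 2 fell and 12 rose in LT, where 12% and 48% of all genes did. In LT+S 18 (36.7%) fell and none rose with TMM scaling, where 21.9% and 19.7% of all genes did. With library totals 2 fell and 17 rose in LT+S, where 10.3% and 46.5% of all genes did. The median log2 difference was -0.34 in LT and -0.25 in LT+S, with 46 and 41 of 49 values below zero, and relative to the median of all genes under library totals it was -0.35 and -0.26. The pooling of these 5 groups into one block was chosen after the values were seen.

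The size of these medians was matched by a difference within CK. The library CK 3 was the highest CK library for 42 of the 49 genes (85.7%, against 43.2% of all genes tested), and its median excess over CK 1 was 0.35 log2 units. Beside it, 51 genes of xylem and vascular tissue, of which 41 were tested, had summed levels of 84.9, 436 and 761 CPM in CK 1, 2 and 3. Their sums ranged from 221 to 590 in LT and from 354 to 413 in LT+S. Of the list's 51 genes, 4 were at 0 throughout CK, 1 throughout LT and 3 throughout LT+S. The mesophyll genes were also higher in CK 3 than in CK 1, in 20 of 20 cases. The part of these tissue markers in the result was not tested.

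Without CK 3 the block's median was -0.22 in LT and -0.12 in LT+S, and 15 and 11 genes were called lower. Other single libraries also moved the counts: in LT, 13 genes were called lower without CK 2 and 11 without LT 1, and in LT+S, 9 without CK 2, 12 without LT+S 1, 9 without LT+S 2 and 8 without LT+S 3. The median stayed below zero when any single library was left out.

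**Figure D2:**
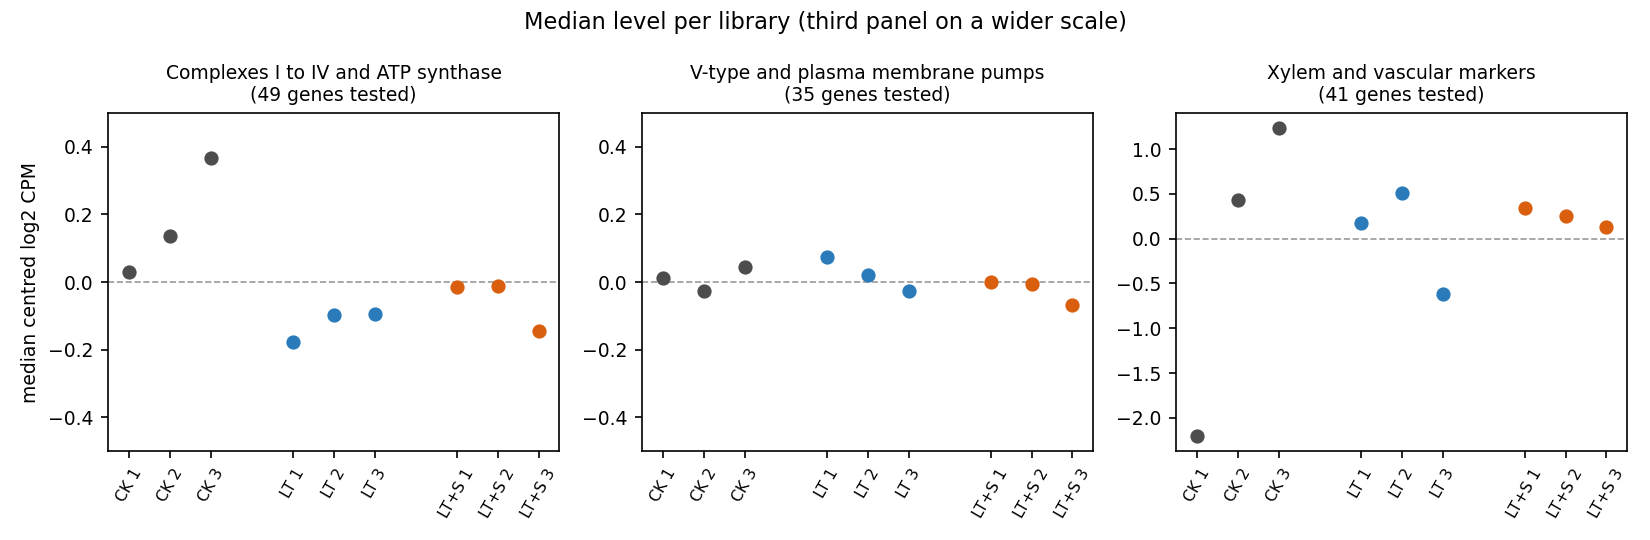
Median level of 3 gene groups in each library, as log2 CPM centred on each gene's mean over the 9 libraries. The respiratory genes run from 0.03 in CK 1 to 0.37 in CK 3 and lie at or below -0.01 in the 6 cold libraries, the vacuolar and plasma membrane pumps stay within 0.08 of zero, and the vascular markers run from -2.20 in CK 1 to 1.23 in CK 3.

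Complex I is the NADH dehydrogenase at the head of the chain. With TMM scaling 10 of its 22 tested genes (45.5%) were lower in LT and 7 (31.8%) in LT+S, and none was higher. Of all genes 23.7% and 21.9% were lower and 22.8% and 19.7% higher. With library totals 0 were lower and 5 and 9 higher, where 48% and 46.5% of all genes were higher. The complex I medians were -0.31 and -0.21 with TMM scaling. In LT, 6 genes were called lower without CK 2 or LT 1, and in LT+S, 4 without CK 2 or CK 3 and 3 without LT+S 2 or LT+S 3. The gene for the flavoprotein 1 subunit, which binds NADH (LOC106772405), had 176, 172 and 163 CPM in CK, 99.6, 103 and 110 in LT and 131, 111 and 102 in LT+S. All cold libraries lay below all CK libraries, and this gene did not share the excess in CK 3. The log2 fold change was -0.71 ± 0.12 (SE) in LT (edgeR adjusted p = 0.0013) and -0.57 ± 0.12 in LT+S (adjusted p = 0.00434).

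The alpha subcomplex subunit 13 (LOC106769964) had 57.2 to 64.2 CPM in CK, from 40.2 to 44.2 in LT and from 40.2 to 51.5 in LT+S, again without overlap, for log2 fold changes of -0.54 and -0.45 (edgeR adjusted p = 0.00571 and 0.0151). The LT+S call of this gene was lost without LT+S 2 or LT+S 3 (adjusted p = 0.0608 and 0.0601). Iron-sulfur protein 7 (LOC106762764), on the path of electrons to ubiquinone, had 201 to 215 CPM in CK and 127 to 160 in LT, a log2 fold change of -0.50 ± 0.14 (edgeR adjusted p = 0.018, and 0.0682 without LT 1). In LT+S its libraries had 142 to 184 CPM, with a log2 fold change of -0.40 (adjusted p = 0.0468), and the call was lost in 6 of the 9 fits that left out a library. The 12 complex I genes not called in LT ranged up to 0.05, held by a copy of alpha subcomplex subunit 8 (LOC106778955).

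Complex II, succinate dehydrogenase, links the citrate cycle to the chain. Its flavoprotein subunit, which oxidizes succinate, had one copy each on chromosome 7 (1179986 to 1187359, build Vradiata_ver6) and chromosome 11 (5510712 to 5518810). The chromosome 7 copy (LOC106765582) had 151, 125 and 91.3 CPM in CK, 11.8, 46.2 and 53.8 in LT and 49.2, 18.0 and 35.3 in LT+S. All cold libraries lay below all CK libraries, with wide spread inside each group. The log2 fold changes were -1.71 ± 0.53 in LT (edgeR adjusted p = 0.0271) and -1.84 ± 0.54 in LT+S (adjusted p = 0.0228). Leaving out CK 1 or CK 2 ended the LT call (adjusted p = 0.0638 and 0.0652), and leaving out CK 1, CK 2, LT+S 2 or LT+S 3 ended the LT+S call (0.0548, 0.058, 0.0746 and 0.065). With library totals the LT difference was -1.22 and was not called (adjusted p = 0.0628).

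The chromosome 11 copy (LOC106777639) had 296, 296 and 279 CPM in CK, 243, 295 and 287 in LT and 313, 279 and 268 in LT+S. These groups overlapped, and the log2 difference was -0.08 ± 0.12 in LT with TMM scaling but 0.42 with library totals, where it was called higher (edgeR adjusted p = 0.0129). The sum over both copies was 413 ± 39.0 CPM (SD, n = 3) in CK, 312 ± 49.8 in LT and 321 ± 36.2 in LT+S. The iron-sulfur subunit (LOC106762873), with 169 to 196 CPM in CK and 102 to 166 in LT, was not called (log2 difference -0.43 ± 0.26, edgeR adjusted p = 0.199).

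Complex III, the cytochrome b-c1 complex, had 4 of 6 tested genes lower in both comparisons with TMM scaling (backgrounds 23.7% in LT and 21.9% in LT+S). With library totals 2 were lower in LT and 1 in LT+S (backgrounds 12% and 10.3%). The LT count with TMM scaling was 2 without LT 1. The largest changes were in the 2 genes of cytochrome c1, the subunit that hands electrons to cytochrome c. LOC106780282, on an unplaced scaffold, had 135, 142 and 162 CPM in CK, 58.9, 70.5 and 65.4 in LT and 70.2, 65.6 and 63.3 in LT+S. Its lowest CK library was well above its highest cold library, and the log2 fold changes were -1.17 ± 0.11 in LT (edgeR adjusted p = 0.000107) and -1.14 ± 0.11 in LT+S (adjusted p = 0.000161).

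The other copy (LOC106765385, chromosome 7, 16764401 to 16771212) had 103, 106 and 117 CPM in CK, 49.2, 67.5 and 61.5 in LT and 74.0, 67.0 and 60.9 in LT+S. It also showed no overlap, with log2 fold changes of -0.87 ± 0.14 and -0.69 ± 0.14 (edgeR adjusted p = 0.00103 and 0.00382). With library totals the LT+S difference of LOC106765385 was -0.20 and was not called (edgeR adjusted p = 0.199). Both cytochrome c1 copies were called lower with TMM scaling, and their sum was 255 ± 21.4 CPM in CK, 124 ± 15.1 in LT and 134 ± 10.02 in LT+S (SD, n = 3). The Rieske iron-sulfur protein (LOC106753663) had 127 to 139 CPM in CK, from 94.8 to 108 in LT and from 87.3 to 104 in LT+S, with log2 fold changes of -0.39 and -0.44 (edgeR adjusted p = 0.0145 and 0.00967) that were 0.11 and 0.05 with library totals. Its LT call was lost without LT 1 (adjusted p = 0.0567).

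Complex IV, cytochrome c oxidase, had 4 of 11 tested genes (36.4%) lower in both comparisons with TMM scaling (backgrounds 23.7% in LT and 21.9% in LT+S). With library totals 0 were lower and 2 and 3 higher, where 48% and 46.5% of all genes were higher. The counts with TMM scaling fell to 1 without LT 1 in LT and to 1 without CK 2 or LT+S 3 in LT+S. Subunit 5b-1 (LOC106774265) had 63.8, 68.6 and 85.0 CPM in CK, 44.6, 49.5 and 45.7 in LT and 41.5, 49.4 and 42.7 in LT+S. No cold library reached CK, and the log2 fold changes were -0.64 ± 0.13 and -0.70 ± 0.13 (edgeR adjusted p = 0.00373 and 0.00269). The related gene for subunit 5b-2 (LOC106760900) had overlapping values of 12.5 to 19.5 CPM in CK and 18.2 to 22.5 in LT and was not called (log2 difference 0.30 ± 0.18, edgeR adjusted p = 0.197).

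Subunit 2 is encoded in the mitochondrion in most plants, but its gene moved to the nucleus in the lineage of Vigna. The annotated gene (LOC106760164, described as a fragment) lies on chromosome 5 at 766878 to 771169. It had 382, 374 and 390 CPM in CK, 253, 288 and 301 in LT and 310, 273 and 257 in LT+S. The cold libraries lay below CK, with a log2 fold change of -0.45 ± 0.12 in both comparisons (edgeR adjusted p = 0.0166 and 0.0179) that became 0.06 and 0.04 with library totals. The LT call was lost without LT 1 (adjusted p = 0.0671), and the LT+S call without CK 2, LT+S 2 or LT+S 3 (0.0519, 0.0648 and 0.0734).

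ATP synthase had 2 of 6 tested subunit genes (33.3%) lower in both comparisons with TMM scaling (backgrounds 23.7% in LT and 21.9% in LT+S). With library totals 0 were lower and 3 higher in each, where 48% and 46.5% of all genes were higher. The beta subunit, which carries the catalytic sites (LOC106772349), had 417, 450 and 501 CPM in CK, 267, 281 and 300 in LT and 305, 334 and 256 in LT+S. All cold libraries were below CK, for log2 fold changes of -0.69 ± 0.14 and -0.61 ± 0.14 (edgeR adjusted p = 0.00371 and 0.0076). The gamma subunit (LOC106757962), the rotor shaft, had 179 to 203 CPM in CK, from 140 to 153 in LT and from 140 to 167 in LT+S, with log2 fold changes of -0.40 and -0.31 (edgeR adjusted p = 0.0158 and 0.0498) that were 0.11 and 0.19 with library totals. The LT call was lost without CK 2 or LT 1 (adjusted p = 0.0557 and 0.0577), and the LT+S call was lost in 8 of the 9 fits that left out a library. Subunit d (LOC106769898) had 127, 139 and 197 CPM in CK and 117, 123 and 125 in LT, with no overlap, but its log2 difference of -0.34 ± 0.16 was not called (edgeR adjusted p = 0.112). The epsilon, O and delta-prime subunits had differences of -0.10, -0.09 and -0.02 in LT and were not called.

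None of the alternative oxidase genes was called higher after 4 days at 15 °C with TMM scaling. With library totals the plastid form was called higher in LT+S. The 2 genes for ubiquinol oxidase 2 are neighbours on chromosome 9, at 3706777 to 3713563 (LOC106773017) and 3719134 to 3722412 (LOC106772944). LOC106772944, the one with more reads, had 235, 236 and 254 CPM in CK, 107, 175 and 140 in LT and 165, 130 and 156 in LT+S. Every cold library was below every CK library. The log2 fold changes were -0.78 ± 0.18 in LT (edgeR adjusted p = 0.00688) and -0.68 ± 0.18 in LT+S (adjusted p = 0.0143, and 0.0586 without LT+S 2), and with library totals they were -0.28 and -0.19 and not called.

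The neighbour LOC106773017 had 45.7, 48.3 and 51.3 CPM in CK, 26.9, 33.1 and 27.0 in LT and 25.1, 30.2 and 35.8 in LT+S, without overlap. Its log2 fold changes were -0.74 ± 0.15 and -0.67 ± 0.15 (edgeR adjusted p = 0.00323 and 0.00605), and -0.24 and -0.18 and not called with library totals. Ubiquinol oxidase 1 (LOC106777273, chromosome 11), the form most often described as stress-inducible in other plants, had 29.4, 21.5 and 15.8 CPM in CK, 8.41, 11.98 and 18.9 in LT and 17.1, 10.1 and 10.5 in LT+S. The groups overlapped, and the log2 differences of -0.76 ± 0.34 and -0.82 ± 0.34 were not called (edgeR adjusted p = 0.0981 and 0.0843), although without LT 3 both passed (0.0265 and 0.0474) and without LT+S 1 the second did (0.0497).

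Ubiquinol oxidase 4 (LOC106774530, chromosome 10) is the plastid terminal oxidase, which works on plastoquinol in the chloroplast and entered by its description. It had 170, 134 and 108 CPM in CK, 124, 144 and 145 in LT and 215, 139 and 114 in LT+S, with overlap throughout. The log2 difference was 0.01 ± 0.24 in LT and 0.19 ± 0.24 in LT+S, neither called (edgeR adjusted p = 0.989 and 0.571), and the LT+S difference with library totals was 0.67 (adjusted p = 0.037).

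**Figure D3:**
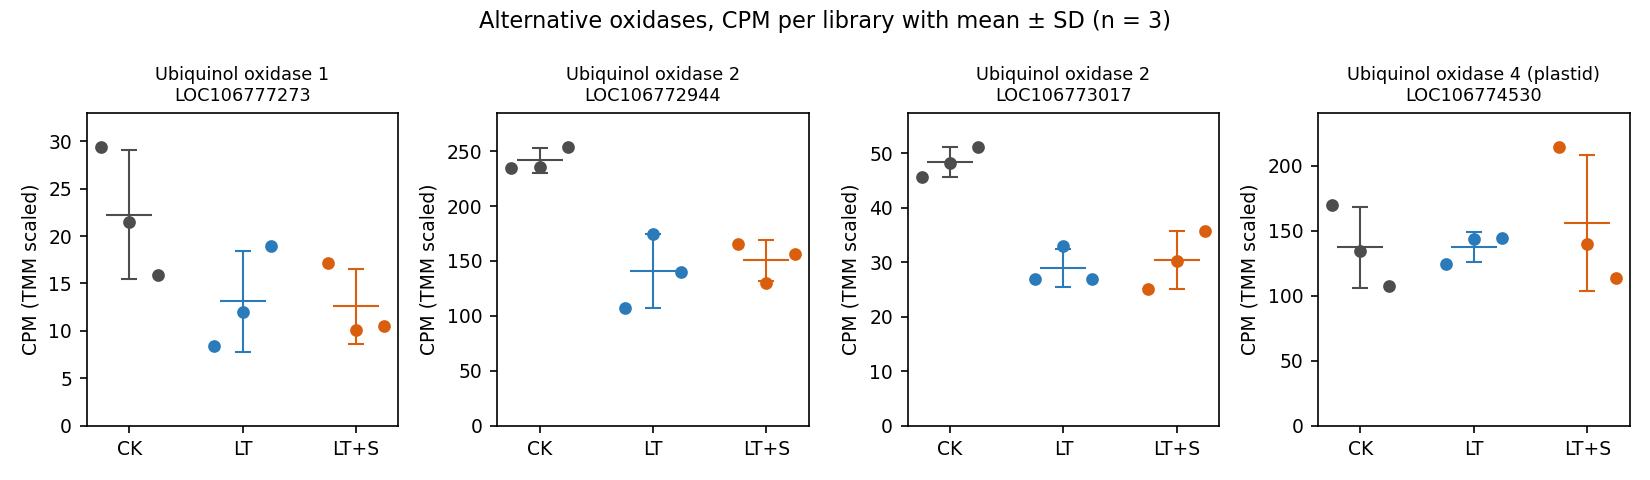
CPM of the 4 ubiquinol oxidase genes in each of the 9 libraries on linear axes that start at 0, with the group mean and SD (n = 3). With TMM scaling, both genes of ubiquinol oxidase 2 lie lower in all 6 cold libraries than in CK (at most 175 against at least 235 CPM for LOC106772944), whereas the groups overlap for ubiquinol oxidase 1 and the plastid form.

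The V-type ATPase showed no shared direction with TMM scaling. Of its 27 tested genes 4 (14.8%) rose and 3 (11.1%) fell in LT, where 22.8% and 23.7% of all genes did. In LT+S 3 (11.1%) rose and 5 (18.5%) fell, where 19.7% and 21.9% of all genes did. The medians were 0.10 and 0.06. With library totals the LT median was 0.60 and 22 rose and 0 fell in each comparison. Under that scaling 48% of all genes rose in LT and 46.5% in LT+S. Relative to the median of all genes under library totals, the V-type medians were 0.09 in LT and 0.05 in LT+S. The LT+S count of lower genes was 3 without CK 2 or LT+S 3. The enzyme has a V1 sector in the cytosol that hydrolyses ATP and a V0 sector in the membrane that carries protons. The split by sector was made after the values were seen: in LT, V1 had 2 of 13 genes higher and none lower (median 0.14) and V0 had 2 of 14 higher and 3 lower (median 0.02).

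In V1, the catalytic subunit A (LOC106773955) had 330, 300 and 284 CPM in CK, 426, 381 and 383 in LT and 350, 365 and 338 in LT+S. Both cold groups lay above CK, but only the LT difference was called (log2 fold change 0.38 ± 0.12, edgeR adjusted p = 0.0254, against 0.20 with adjusted p = 0.189 in LT+S). That call was lost without CK 2, CK 3 or LT 1 (adjusted p = 0.0897, 0.0582 and 0.0876) and in the fit of the 6 CK and LT libraries alone (0.0616). Subunit C (LOC106759482), a stalk subunit that joins the sectors, had 61.1 to 68.9 CPM in CK, from 87.9 to 95.5 in LT and from 85.5 to 87.0 in LT+S, with log2 fold changes of 0.49 and 0.38 (edgeR adjusted p = 0.0024 and 0.00887). The other tested gene of subunit C (LOC106774632) had log2 differences of 0.12 in LT and 0.06 in LT+S and was not called.

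In V0, subunit a1, which forms part of the proton channel, had 2 genes. LOC106756546 (chromosome 2, 5595438 to 5607482) had 3.95, 5.18 and 4.84 CPM in CK, 9.46, 8.43 and 9.13 in LT and 7.69, 8.47 and 10.1 in LT+S, with no overlap and log2 fold changes of 0.95 ± 0.17 and 0.91 ± 0.17 (edgeR adjusted p = 0.00188 and 0.00279). The other (LOC106759283) had 34.8 to 37.1 CPM in CK and 33.1 to 37.8 in LT, a difference of 0.00 that was not called.

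The 16 kDa proteolipid, the proton-carrying ring subunit, had 6 tested genes that did not move together. LOC106778110 had 35.5 to 40.7 CPM in CK, from 53.6 to 84.4 in LT and from 46.1 to 62.0 in LT+S, with log2 fold changes of 0.75 and 0.55 (edgeR adjusted p = 0.0112 and 0.0461). The LT+S call was lost without any one of the 3 CK libraries, LT+S 1 or LT+S 2, with adjusted p between 0.0679 and 0.138. LOC106780537 had 128 to 159 CPM in CK, from 84.4 to 107 in LT and from 81.1 to 93.2 in LT+S, with log2 fold changes of -0.59 and -0.71 (edgeR adjusted p = 0.0049 and 0.00244) that were -0.09 and -0.21 and not called with library totals. The other 4 were not called and had log2 differences from -0.16 to 0.53 in LT.

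A gene of each of 2 further V0 subunits fell in both comparisons. Subunit c''2 (LOC106762991) had 49.0 to 50.5 CPM in CK, from 33.6 to 37.6 in LT and from 33.4 to 35.2 in LT+S, with no overlap and log2 fold changes of -0.48 ± 0.09 and -0.55 ± 0.09 (edgeR adjusted p = 0.00191 and 0.00121), which became 0.03 and -0.05 with library totals. The other tested gene of subunit c''2 (LOC106770765) had log2 differences of 0.10 in LT and 0.16 in LT+S and was not called. Subunit e1 (LOC106775137) had 29.0 to 36.2 CPM in CK and 23.1 to 23.5 in LT, a log2 fold change of -0.47 (edgeR adjusted p = 0.00685), or 0.04 and not called with library totals.

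**Figure D4:**
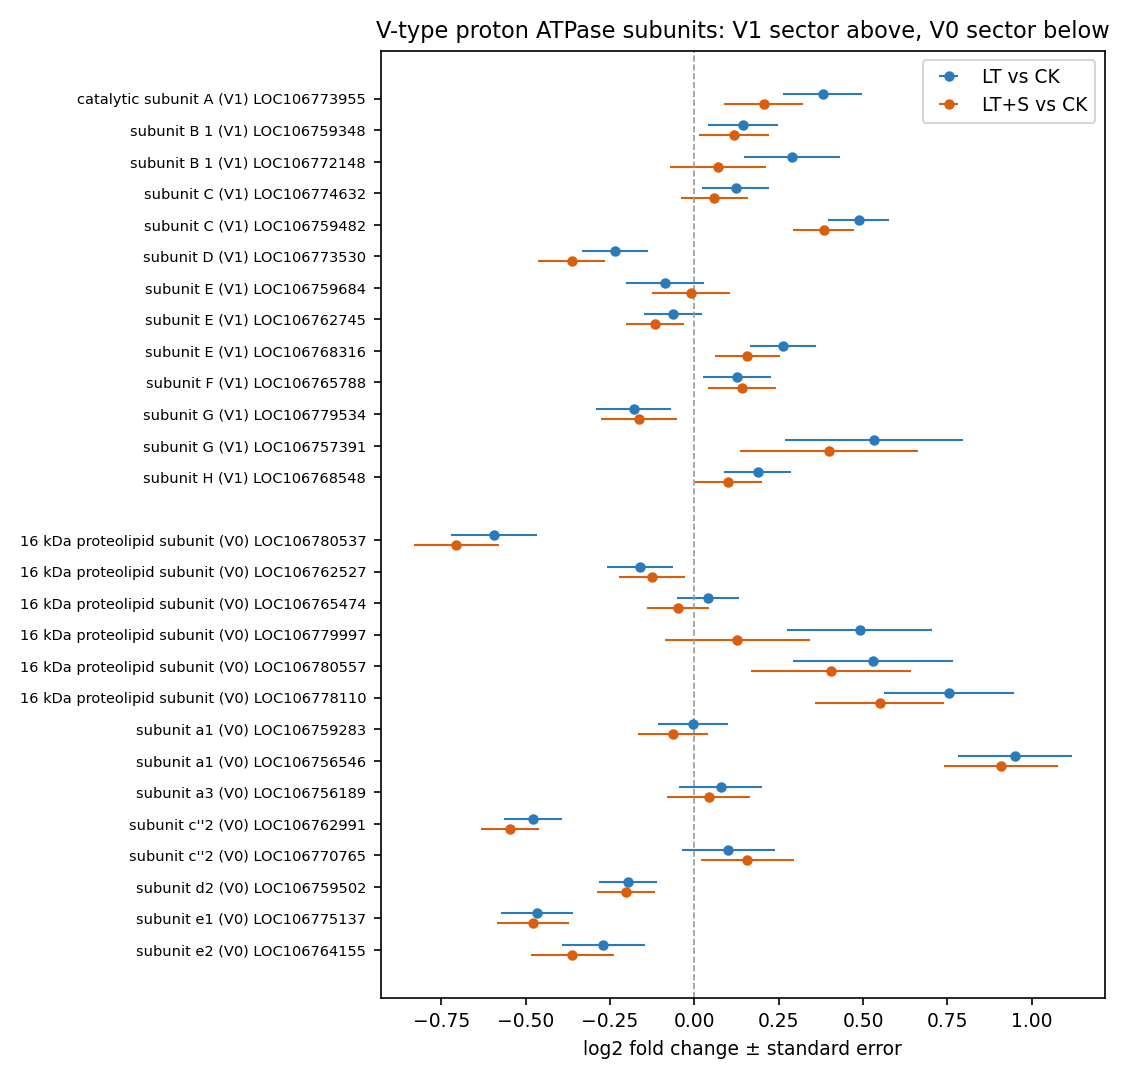
Log2 fold change with its standard error for each tested V-type ATPase gene, V1 sector in the upper block and V0 in the lower, with TMM scaling. LT is blue and LT+S orange, both against CK. Genes that share one description lie apart, such as the 16 kDa proteolipid, which runs from -0.59 to 0.75 in LT.

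The plasma membrane ATPases energize transport into the cell. With TMM scaling 2 of their 8 tested genes (25%) were higher and 3 (37.5%) lower in both comparisons. Of all genes 22.8% were higher and 23.7% lower in LT, and 19.7% and 21.9% in LT+S. With library totals 3 were higher and 1 lower in both. Under that scaling 48% of all genes were higher and 12% lower in LT, and 46.5% and 10.3% in LT+S. The gene with the most reads (LOC106764650) had 1173, 1166 and 1010 CPM in CK, 607, 746 and 656 in LT and 696, 651 and 671 in LT+S. The groups did not overlap, and the log2 fold changes of -0.74 ± 0.14 and -0.73 ± 0.14 (edgeR adjusted p = 0.00287 and 0.00355) were -0.24 in both and not called with library totals.

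ATPase 11 had 4 genes with reads, of which 3 were tested. Among these, LOC106768154, with 28982 reads over all libraries, was not called in either comparison with CK. LOC106778754 had 405, 308 and 224 CPM in CK, 122, 142 and 90.2 in LT and 114, 133 and 138 in LT+S, with no overlap and log2 fold changes of -1.40 ± 0.24 and -1.28 ± 0.24 (edgeR adjusted p = 0.0015 and 0.00275). LOC106770684 (chromosome 1, 2678455 to 2685561) moved the other way, from 11.9, 7.86 and 4.84 CPM in CK to 35.1, 34.2 and 38.0 in LT and 31.6, 18.8 and 24.2 in LT+S. All its cold libraries were above CK, with log2 fold changes of 2.12 ± 0.30 and 1.596 ± 0.30 (edgeR adjusted p = 0.000631 and 0.003). The summed level of these 4 genes was 492 ± 53.1 CPM in CK, 302 ± 62.2 in LT and 297 ± 41.9 in LT+S (SD, n = 3).

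Plasma membrane ATPase 4 also had copies called in opposite directions. LOC106755200 had 42.8 to 51.3 CPM in CK, from 33.5 to 36.8 in LT and from 27.0 to 31.8 in LT+S (log2 fold changes -0.42 and -0.64, edgeR adjusted p = 0.0115 and 0.00189), but with library totals its differences were 0.08 and -0.14 and not called. LOC106768495 had 1.39 to 2.74 CPM in CK, from 3.03 to 4.42 in LT and from 4.13 to 4.69 in LT+S (log2 fold changes 0.79 and 1.11, edgeR adjusted p = 0.0425 and 0.0114), and its LT call was lost in 8 of the 9 fits that left out a library. The sum over 4 copies, carried by LOC106761834, was 570 ± 43.8 CPM in CK, 554 ± 92.0 in LT and 550 ± 80.7 in LT+S, and these sums overlapped between groups.

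Among the pyrophosphatases, the 2 tested genes of soluble inorganic pyrophosphatase 1 went in opposite directions. LOC106778070 (chromosome 11, 5762140 to 5765280) had 19.2, 16.9 and 24.6 CPM in CK, 81.7, 89.9 and 101 in LT and 47.5, 55.2 and 75.3 in LT+S. The 3 groups did not overlap, with LT highest and CK lowest. Its log2 fold changes of 2.17 ± 0.20 in LT (edgeR adjusted p = 9.8e-05) and 1.55 ± 0.20 in LT+S (adjusted p = 0.000505) ranked first in LT and, after ATPase 11 LOC106770684, next in LT+S among members with at least 5 CPM in the higher group.

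The second gene (LOC106778166, on an unplaced scaffold) had 15.4, 11.6 and 9.62 CPM in CK, 4.79, 5.24 and 5.70 in LT and 6.24, 4.05 and 5.02 in LT+S. Its cold libraries all lay below CK, with log2 fold changes of -1.22 ± 0.22 and -1.26 ± 0.22 (edgeR adjusted p = 0.00224 and 0.00227). The sum of both was 32.4 ± 3.38 CPM in CK, 96.2 ± 10.2 in LT and 64.4 ± 14.0 in LT+S (SD, n = 3). A copy of pyrophosphatase 4 (LOC106772313) was called higher in LT (log2 fold change 1.48 ± 0.53, edgeR adjusted p = 0.0451), but its LT libraries had 27.8, 139 and 67.9 CPM, the first inside the CK range of 20.6 to 36.2, and the call was lost in 7 of the 9 fits that left out a library.

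**Figure D5:**
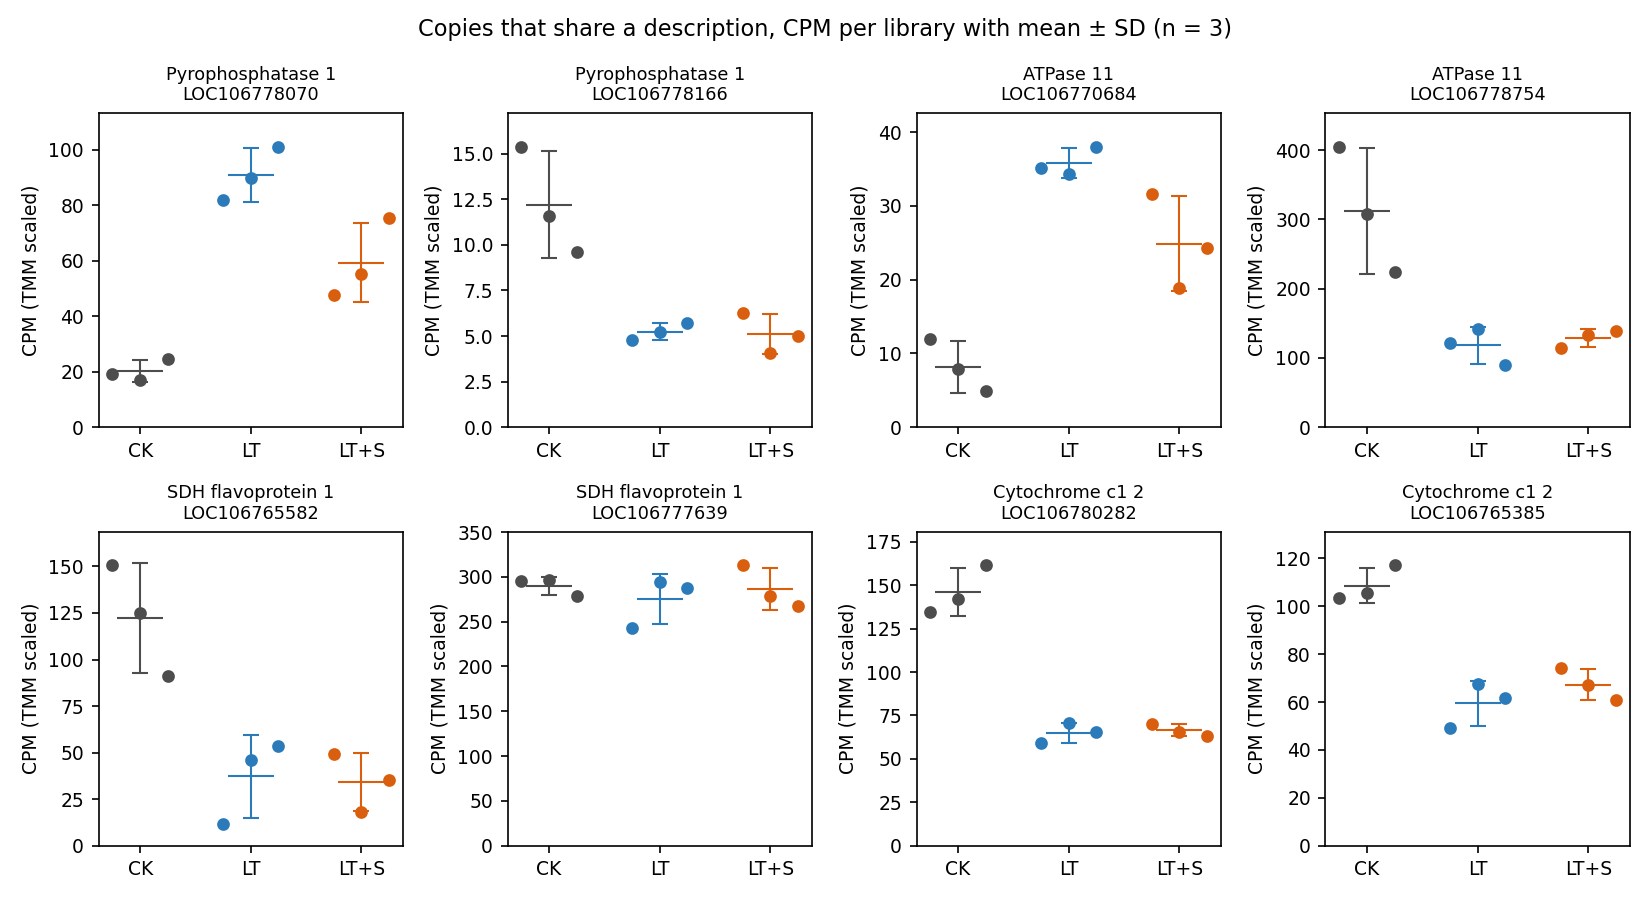
CPM per library of 4 pairs of genes that share a product description, on linear axes that start at 0, with the group mean and SD (n = 3). Pyrophosphatase 1 and ATPase 11 each have a copy higher and a copy lower in the cold, only one succinate dehydrogenase flavoprotein gene has cold libraries clear of CK, and both cytochrome c1 genes lie lower. Another tested ATPase 11 gene, LOC106768154, was not called and is not drawn.

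In all, 15 product descriptions were shared by at least 2 tested members (37 genes). In both comparisons 4 of the 15 had one gene called higher and another called lower with TMM scaling: ATPase 11, plasma membrane ATPase 4, pyrophosphatase 1 and the 16 kDa proteolipid. With library totals ATPase 11 and pyrophosphatase 1 did so in both comparisons, and succinate dehydrogenase flavoprotein in LT+S. This pattern was picked after the values were seen. The share of all shared descriptions with such opposite calls was not counted. Of all genes 22.8% were called higher and 23.7% lower in LT, and 19.7% and 21.9% in LT+S. In LT, plasma membrane ATPase 4 dropped out with no filter, with the CK and LT libraries alone, and without any single library other than CK 2. In LT+S, the 16 kDa proteolipid dropped out with a replicate block and without any single CK library, LT+S 1 or LT+S 2. How reads that match several copies were counted is not given in the sources used here, so the split between near-identical copies is less certain than their sum.

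A gene with no description (LOC106762213, chromosome 5, 32035104 to 32036623) had 2 reads in the CK libraries together, 60 in LT and 68 in LT+S. The ratio to CK was 21.1 in LT (95% interval 5.58 to 178, counting error only) and 23.6 in LT+S (6.29 to 199), and the edgeR adjusted p were 0.00406 and 0.00368. Among the untested genes, a plasma membrane ATPase 8 (LOC106760761) had 1 read in CK, 18 in LT and 22 in LT+S.

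No member was called between the cold groups with and without uniconazole. In LT+S against LT, 0 of 95 members were called higher (background 0.0104%) and 0 lower (background 0.00518%) by edgeR, and 0 by DESeq2. At an unadjusted p below 0.05 there was 1 member by each tool, where edgeR gave 720 higher and 644 lower of all 19304 genes. In edgeR it was pyrophosphatase 1 LOC106778070, with a log2 difference of -0.62 ± 0.19 (adjusted p = 0.484) and every LT+S library below every LT library. The median difference of all members was 0.02, and 92 of 95 lay within 0.5 log2 units of zero, as did 84.9% of all genes.

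The values had a slight lean by role between the cold groups, without a single call. Above zero were 37 of the 49 respiratory genes (median 0.08), and 22 of the 27 V-type genes were below it (median -0.07). Of all 19304 genes, 9435 were above zero and 9869 below. Beside them, 19 of the 20 mesophyll genes were above zero in the same comparison (median 0.69). For 11 of these every LT+S library was above every LT library, as for 1391 of all 19304 genes. The part of the mesophyll genes in this lean was not tested. For the ubiquinol oxidase 2 genes the differences were 0.10 ± 0.18 and 0.07 ± 0.15 (SE), and for cytochrome c1 LOC106780282 it was 0.03 ± 0.11. The ATP synthase delta-prime subunit (LOC106772892) had 79.8 to 80.9 CPM in LT and 91.6 to 99.1 in LT+S, without overlap but not called (log2 difference 0.24 ± 0.12, edgeR adjusted p = 0.773). A p that misses the threshold does not show that the treatments act alike on these genes.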

How the data were processed

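Poly-A RNA of 9 leaf samples (CK, LT and LT+S, 3 each) was sequenced. The authors trimmed reads with Trimmomatic, aligned them with HISAT2 and deposited raw counts per gene, made with htseq-count on Vradiata_ver6. Bowtie2 and eXpress are mentioned too, and the submitters' processing notes list CASAVA 1.8 and Cufflinks. Strand and multi-mapping settings are not given in the sources used here.

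All genes were fitted at once with edgeR 4.0.16 (R 4.3.3): filterByExpr, TMM, one group term over 9 libraries and glmQLFTest, with Benjamini-Hochberg adjustment over 19304 genes. The fit was tested on simulated data. Log2 levels used a prior count of 2. Each pot was a replicate, as the methods state. The LT+S labels give 3 different code numbers for uniconazole, and these libraries were treated as 1 group. Gene coordinates and symbols came from RefSeq's table for Vradiata_ver6, where all 108 members were found. Levels were not compared between genes because transcript lengths were not used, and no sequences were analysed here.

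Members and lists were chosen with earlier results of these data known. Genes were named by a rule: all ubiquinol oxidases, the 2 smallest p and the highest mean CPM in each role group, the 5 largest calls in each direction without overlap and with a mean of at least 5 CPM, and the 4 smallest p in LT+S against LT. Copies outside the rule (LOC106759283, LOC106780537, LOC106755200 and others) were named after their values were seen. Alternatives were DESeq2 1.42.0, its size factors, library totals, 2 other filters, 6 libraries, a replicate block, a fold rule and leaving out each library. Intervals cover counting error only.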

Additional observations from a re-analysis of the deposited data

How the results depend on the processing

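Scaling mattered most. With library totals 41 members were higher and 4 lower in LT against CK, and 46 and 4 in LT+S, where 48% and 12% of all genes were called in LT and 46.5% and 10.3% in LT+S. The median log2 differences were 0.27 and 0.34. The respiratory block's medians became 0.17 and 0.25. Single genes turned above zero in LT (LOC106753663 0.11, LOC106757962 0.11, LOC106760164 0.0604, LOC106762764 0.0088, LOC106762991 0.0255, LOC106777639 0.42) and in LT+S (LOC106753663 0.0514, LOC106757962 0.19, LOC106760164 0.0439, LOC106762764 0.0915, LOC106769964 0.0457, LOC106777639 0.47). Which scaling fits the total RNA per cell was not tested.

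With a fold over 2 and an unadjusted p below 0.05, 4 members were higher and 4 lower in each comparison with CK. Leaving out each library gave 20 to 34 members lower in LT and 17 to 31 in LT+S (18 without CK 2, 18 without LT+S 2, 17 without LT+S 3), with 7 to 8 and 6 to 7 higher. The member medians then ran from -0.32 to -0.13 in LT and from -0.21 to -0.07 in LT+S, the highest of each without CK 3, and the V-type median in LT+S ran from -0.0057 without CK 3 to 0.1025 without CK 1. DESeq2, its size factors, the other filters and the 6-library fits kept every member count within 1.5 times.

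With the replicate block, 7 members were higher and 24 lower in LT, 6 and 22 in LT+S, and 0 and 0 between the cold groups. The LT calls of LOC106765582, LOC106773955 and LOC106772313 were then not reached (edgeR adjusted p = 0.0611, 0.0525 and 0.0967). Nor were the LT+S calls of LOC106757962, LOC106760164, LOC106762764 and LOC106778110 (edgeR adjusted p = 0.101, 0.051, 0.0945 and 0.0736). Same-numbered libraries correlated from -0.296 to 0.267 in their deviations from group means, and differently numbered ones from -0.266 to 0.364. With 3 libraries a group, these values do not settle whether same-numbered samples shared a batch or harvest. Depth was alike in all libraries, and 3 libraries a group limit the precision of differences near 0.3 log2 units, of which some were called and others not.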

Other observations

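Over all genes 22.8% were called higher and 23.7% lower in LT against CK, and 19.7% and 21.9% in LT+S, and the lists below are read against these shares. Of 45 tested citrate cycle genes 9 were higher and 11 lower in LT against CK by edgeR (median log2 difference 0.05), and 8 and 11 in LT+S (0.05), so that the lower genes were 24.4% of the list in each. The alternative NAD(P)H dehydrogenases, which feed ubiquinone without pumping protons, had 2 of 7 higher and 3 lower in both comparisons, with medians of -0.40 and -0.36 under TMM scaling. Their single genes spread widely, from -2.15 to 3.14 in LT. Of 16 tested mitochondrial carriers, which move adenylates, phosphate and organic acids across the inner membrane, 3 were higher and 6 lower in LT and 3 and 3 in LT+S.

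Respiratory subunits that the pathway annotation did not hold were mostly below zero: 14 of 16 in each comparison with TMM scaling, where 49.5% of all genes were. Of these subunits 4 were called lower and 1 higher in LT, and 5 lower and 0 higher in LT+S. They shared the excess in CK 3, the highest CK library for 15 of the 16 (43.2% of all genes). Their median excess of CK 3 over CK 1 was 0.24, beside a median of -0.20 in LT and -0.26 in LT+S. Proton pumps outside the annotation had 2 of 7 lower in LT and 3 in LT+S, and none higher. Both of these lists were added after the files were seen. Further lists were picked by names linked to other organs. The 6 pollen and flower genes had low levels, with sums of 0.72 to 3.95 CPM per library, and 1 was tested. The root and nodule list holds 34 genes with nodulin or leghemoglobin in the description, of which 14 were tested. Of these, 5 were higher and 3 lower in LT and 4 and 2 in LT+S. The summed level of the list was 1481 to 1818 CPM in the CK libraries and 451 to 588 CPM in the cold libraries. The list includes early nodulin-like proteins and leghemoglobin reductase, which is also in the citrate cycle list. Whether these genes mark root or nodule tissue was not tested.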
